A study of Mus musculus with 2 samples.

Results

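The genes described here encode proteins of the spliceosome and RNA-binding proteins that guide it, with some relatives by name that have other roles. Lsm14a, Lsm14b and Rbm44 are among those relatives, and all genes of the set are called splicing genes for short. The set was chosen by symbol alone, from the protein-coding rows of a raw count table: the SR protein genes (Srsf), the hnRNP genes (Hnrnp), the SF3A and SF3B genes, the Sm and other snRNP genes (Snrp, Snrnp), the Prpf, Lsm and U2af genes, the numbered Rbm genes and the Tra2 genes. The rule took 122 genes out of 22673 protein-coding rows, in a table of 46095 genes. The rule itself uses no measured value, but it was chosen with earlier results of these data known. Of the 122 genes, 116 had at least 20 counts over both libraries and are the ones for which a ratio is given.

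The series holds 2 RNA-seq libraries of mouse acute myeloid leukaemia (AML), both from leukaemia-initiating cells of C57BL/6 mice aged 8 weeks. The first is labelled P2x7-KO in its genotype field and P2XT-KD in its title, and its counterpart is labelled wild type and P2XT-Scr. Both were sorted from bone marrow as Mac1+ c-Kit+ cells. Mac1 contains the product of Itgam and c-Kit is the product of Kit. The comparison addresses what changes in these cells without P2x7, an ATP-gated ion channel encoded by P2rx7. The sources used here do not say how the leukaemia was made, how the gene was removed, or how many mice gave each library.

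The spliceosome removes introns from pre-mRNA. Its U1, U2, U4 and U5 particles each carry a ring of Sm proteins around a small nuclear RNA, and the U6 RNA carries a ring of the related LSm proteins. U1 recognises the start of an intron, U2 together with U2AF recognises its end, and the U4/U6.U5 tri-snRNP then joins and is rearranged into the active enzyme. SR proteins and hnRNP proteins bind exons and introns and shift which splice sites are used. Splicing factors are among the genes most often mutated in human myeloid neoplasms, with SF3B1, SRSF2, U2AF1 and ZRSR2 as the best known.

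The promoters of Sm core genes are shown because those genes were the role group with the lowest ratios between the libraries, and the promoter of Rbm47, a gene well above 1, is shown beside them. Each sequence covers the 120 bases before the RefSeq start of the gene in GRCm38.p6, written 5′ to 3′ on the strand of the gene. Capitals mark a CCAAT box (CCAAT, or ATTGG on the other strand), a GC box (GGGCGG or CCGCCC) or a CRE (TGACGTCA).
Snrpg (chr6:86371420-86371539, plus strand): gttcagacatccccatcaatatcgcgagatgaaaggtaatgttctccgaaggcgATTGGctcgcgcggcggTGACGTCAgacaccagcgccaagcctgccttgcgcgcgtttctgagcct
Snrpe (chr1:133610281-133610400, minus strand): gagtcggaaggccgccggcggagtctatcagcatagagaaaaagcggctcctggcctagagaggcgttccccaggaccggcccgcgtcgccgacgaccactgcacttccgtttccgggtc
Snrpd2 (chr7:19149718-19149837, plus strand): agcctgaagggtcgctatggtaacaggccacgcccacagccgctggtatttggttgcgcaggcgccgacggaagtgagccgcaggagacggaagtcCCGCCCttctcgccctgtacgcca
Snrpf (chr10:93589659-93589778, minus strand): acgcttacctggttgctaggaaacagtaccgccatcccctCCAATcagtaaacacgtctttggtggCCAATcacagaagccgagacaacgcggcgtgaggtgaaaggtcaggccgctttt
Snrpd3 (chr10:75517922-75518041, plus strand): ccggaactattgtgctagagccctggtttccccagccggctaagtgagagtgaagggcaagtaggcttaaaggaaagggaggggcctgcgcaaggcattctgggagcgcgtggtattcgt
Rbm47 (chr5:66151955-66152074, minus strand): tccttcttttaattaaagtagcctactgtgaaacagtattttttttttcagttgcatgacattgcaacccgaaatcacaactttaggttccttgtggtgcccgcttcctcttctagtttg
The Snrpg stretch holds a CCAAT box and a CRE, the Snrpf stretch 2 CCAAT boxes and the Snrpd2 stretch a GC box. The stretches of Snrpe, Snrpd3 and Rbm47 hold none of the 3. Over the whole 300-base windows of RefSeq (250 bases before and 50 after the start), CCAAT on either strand occurred in 4 of the 6 Sm core genes with an entry, in 46.2% of the 104 splicing genes with an entry and in 39.5% of 8732 counted protein-coding genes. The GC box occurred in 2 of the 6 Sm core genes, 64.4% of the splicing genes and 64.9% of the counted genes. The CRE occurred in 1 of the 6 Sm core genes, 2.88% of the splicing genes and 3.41% of the counted genes. An ETS motif (CCGGAAG) occurred in 25% of the splicing genes and 19.7% of the counted genes, an E-box (CACGTG) in 9.62% and 10.5%, and a TATA box (TATAAA) in 10.6% and 6.40%. All motifs were read on both strands. These matches are descriptions of the letters in a window.

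The libraries had nearly equal totals, with 12435916 counts in the library labelled P2x7-KO and 12456212 in the library labelled wild type. With 1 library per group no spread between replicates can be had, so no test was made and no p-value is given. Values are counts scaled to 1000000 per library after TMM normalisation (CPM), and differences are ratios of the library labelled P2x7-KO over the library labelled wild type with an exact 95% counting interval. These intervals cover counting error only. The gene named in the labels went against them: P2rx7 had 42.6 CPM (543 counts) in the library labelled P2x7-KO, against 18.8 CPM (229 counts) in the library labelled wild type. P2rx7 was thus 2.27-fold higher (interval 1.94 to 2.66) in the library labelled P2x7-KO. The sources used here do not say which stretch of the gene was targeted, and every direction below is that of the labels, where a value under a label is that of the library carrying it. The sort genes were present in both libraries, Itgam at 543 CPM under the P2x7-KO label and 187 CPM under the wild-type label and Kit at 67.6 CPM under the P2x7-KO label and 46.0 CPM under the wild-type label. The libraries also differed in markers of blood cell types. The summed level of 5 monocyte genes was 2480 CPM under the P2x7-KO label and 1315 CPM under the wild-type label, with 4 of the 5 higher in the library labelled P2x7-KO, and that of 4 mast cell and basophil genes was 111 CPM under the P2x7-KO label and 520 CPM under the wild-type label, with all 4 lower. The summed level of 6 mature neutrophil genes was 2774 CPM under the P2x7-KO label and 3339 CPM under the wild-type label. Of these, 2 (Ngp and Mmp8) were higher under the P2x7-KO label. The 4 megakaryocyte genes summed to 9.50 CPM under the P2x7-KO label and 39.3 CPM under the wild-type label, nearly all of it from Itga2b. The 5 T and NK cell genes summed to 11.3 CPM under the P2x7-KO label and 35.0 CPM under the wild-type label. Nearly all of that sum came from Nkg7 and Il7r, while Cd3e, Cd3d and Cd3g had at most 4 counts in either library. Cd3e and Cd3g were on the higher side. The 5 erythroid genes summed to 9.66 CPM under the P2x7-KO label and 0.411 CPM under the wild-type label, and the 6 B lymphoid genes to 54.4 CPM under the P2x7-KO label and 56.4 CPM under the wild-type label, nearly all of it from Cd79b. Pf4, of the megakaryocyte list, was at 0 counts in both libraries. The part of these differences in the splicing results was not tested, and in such bulk libraries fewer cells of a type and less RNA per cell cannot be told apart.

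As a whole, the splicing genes took nearly the same share of each library, and within that share the small Sm core genes were lower where the label is P2x7-KO. The 122 genes made up 2.19% of the counts (Clopper-Pearson interval 2.18 to 2.20) in the library labelled P2x7-KO, against 2.15% (2.14 to 2.16) in the library labelled wild type. Of the 116 counted genes, 3 were higher by 2-fold or more (2.59% of them, where 10.8% of all 13363 counted genes were) and 8 were lower by as much (6.90%, where 8.95% of all counted genes were). A gene was counted here when its ratio passed the fold and its counting interval excluded 1. At 1.5-fold, 10 splicing genes were higher (8.62%, against 21.1% of all counted genes) and 19 were lower (16.4%, against 18.9%). With scaling by total count in place of TMM, 16 were higher and 18 lower. The median log2 ratio was -0.12 over the 116 splicing genes and 0.00 over all counted genes. A total of 52 splicing genes lay within 1.25-fold of 1.

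**Figure D1:**
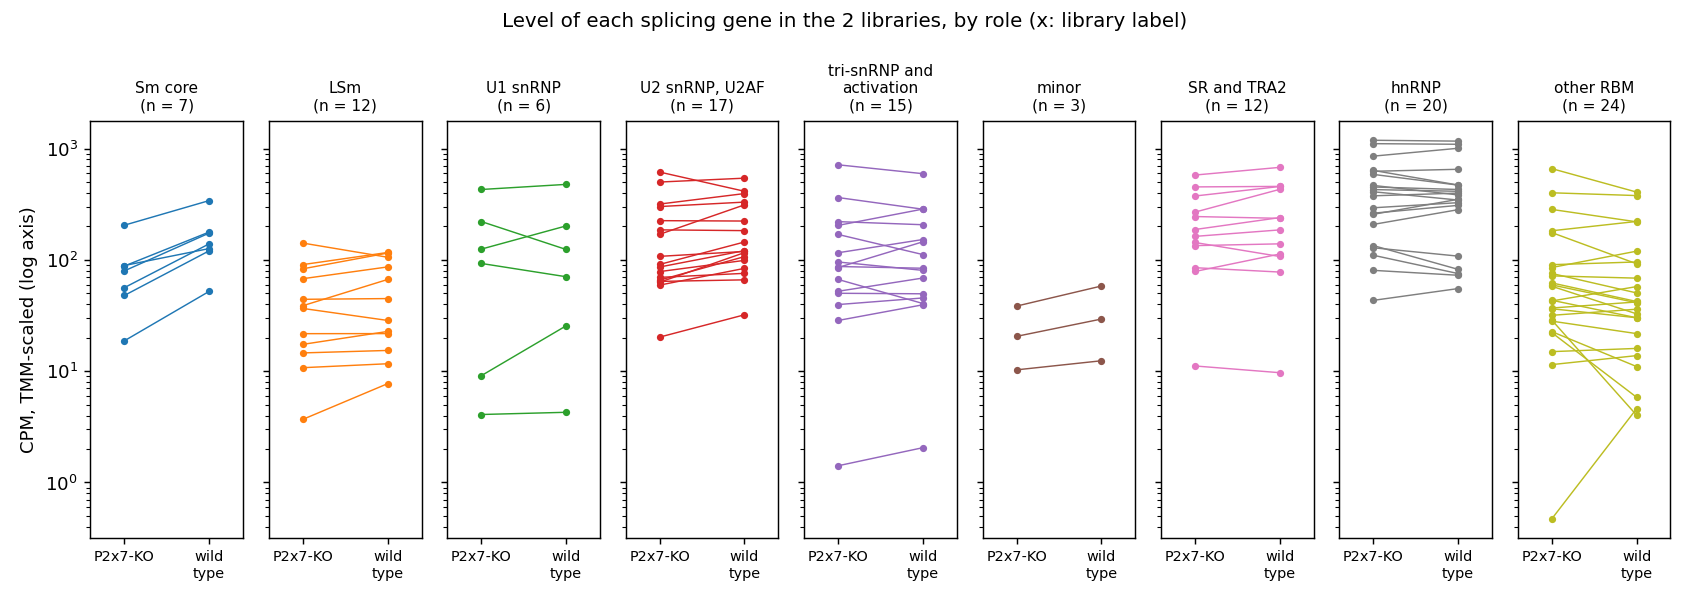
CPM of each of the 116 counted splicing genes (log axis) in the library labelled P2x7-KO (left point) and the library labelled wild type (right point), with a line joining the points of a gene, by role group. The lines of all 7 Sm core genes run upward to the library labelled wild type, while those of the 20 hnRNP genes run in both directions.

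The Sm core genes were the group in which the libraries stood furthest apart. All 7 counted genes had ratios below 1, 5 of them by at least 2-fold and 6 by at least 1.5-fold, and the median log2 ratio was -1.13. Of all 13363 counted genes, 6649 had ratios below 1, 8.95% were 2-fold lower and 18.9% were 1.5-fold lower. The 7 proteins form the ring on which each Sm-class snRNP is assembled. Together with Snrpn they took 0.0600% of the counts (interval 0.0586 to 0.0613) in the library labelled P2x7-KO and 0.111% (0.109 to 0.113) in the library labelled wild type, or 7457 counts under the P2x7-KO label and 13789 under the wild-type label. Snrpg had 239 counts (18.8 CPM) under the P2x7-KO label and 635 counts (52.2 CPM) under the wild-type label, 2.78-fold lower (interval 2.39 to 3.24). Snrpe had 48.0 CPM in the library labelled P2x7-KO and 121 CPM in the library labelled wild type, 2.52-fold lower (2.29 to 2.77). For Snrpd2 the levels were 56.4 CPM under the P2x7-KO label and 140 CPM under the wild-type label, 2.48-fold lower (2.27 to 2.71). These 3 intervals lie above 2-fold, and so does that of Snrpf. Snrpf had 79.8 CPM in the library labelled P2x7-KO, against 174 CPM in the library labelled wild type, 2.19-fold lower (2.03 to 2.36). Snrpd1 was at 88.2 CPM under the P2x7-KO label and 178 CPM under the wild-type label, 2.02-fold lower (1.88 to 2.17). The remaining members of the ring differed less: Snrpb, at 205 CPM under the P2x7-KO label and 342 CPM under the wild-type label, was 1.66-fold lower (1.58 to 1.75). Snrpd3 was at 89.1 CPM under the P2x7-KO label and 127 CPM under the wild-type label, 1.42-fold lower (1.31 to 1.54). Snrpn, the neuronal relative of Snrpb, had 0 counts in both libraries, which allows up to 0.236 CPM in the library labelled P2x7-KO and 0.247 CPM in the library labelled wild type. The proteins stand at equal numbers in the ring, while their transcripts did not: per kilobase of transcript, Snrpg had 17.8 CPM and Snrpb 177 CPM in the library labelled P2x7-KO, against 49.5 and 294 CPM in the library labelled wild type.

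The sources used here do not say how reads of near-identical copies were counted, and Sm genes have many such copies. Of the 50-base words in the longest coding transcript of Snrpf, 89.5% also occur in other annotated genes, largely Ccdc38, which overlaps it on the opposite strand and had 8 counts in the library labelled P2x7-KO and 9 in the library labelled wild type. The share was 20.8% for Snrpe, 18.6% for Snrpg, 13.8% for Snrpd1, 11.7% for Snrpd2, 5.46% for Snrpd3 and 0.0899% for Snrpb. The share was at least 20% in 25 of the 122 splicing genes, among them Snrpf, Snrpe, Snrpa, Rbm10, U2af1l4, Srsf3, Hnrnpa1 and Rbm12, and their values are therefore uncertain. Over the 5 Sm core genes with under 20% of shared words the median log2 ratio was -1.01, and all 5 ratios lay below 1.

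The LSm genes, whose products form the ring of U6 and a cytoplasmic ring that takes part in mRNA decay, were closer to 1. Of 12 counted genes, 0 were 1.5-fold higher and 2 were 1.5-fold lower, 1 of them past 2-fold, with a median log2 ratio of -0.23. Over all counted genes, 21.1% were 1.5-fold higher and 18.9% lower, so the lower count of the LSm genes was near that share. Lsm7 was low in both libraries, with 47 counts under the P2x7-KO label and 94 under the wild-type label, 2.09-fold lower (1.46 to 3.04), and 20% of its words are shared with other genes. Lsm3 was at 38.8 CPM in the library labelled P2x7-KO and 66.7 CPM in the library labelled wild type, 1.72-fold lower (1.54 to 1.93). Lsm4 was at 83.2 CPM under the P2x7-KO label and 115 CPM under the wild-type label, 1.39-fold lower (1.28 to 1.5). These small subunits lay on the lower side, whereas Lsm14a and Lsm14b, which act in translational control and in cytoplasmic RNA granules, lay on the higher side. Lsm14a had 142 CPM in the library labelled P2x7-KO, against 106 CPM in the library labelled wild type, 1.34-fold higher (1.25 to 1.44). Lsm2, a subunit of both LSm rings, had 0 counts in the library labelled P2x7-KO and 5 in the library labelled wild type, and shares no 50-base word with another gene. Snrnp40 had 18 counts under the P2x7-KO label and 25 under the wild-type label. Snrpc had 52 counts under each label, and Srsf1 had 142 under the P2x7-KO label and 118 under the wild-type label. Nearly all cells use these 4 genes, and how reads were assigned to them was not tested.

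The proteins of U1, which binds the 5′ splice site, had ratios on both sides of 1: of 6 genes, 1 was 1.5-fold higher and 2 were 1.5-fold lower, with a median log2 ratio of -0.11. The shares over all counted genes were 21.1% higher and 18.9% lower. Prpf40b, a homolog of a yeast U1 protein that bridges the ends of the intron, had 116 counts (9.11 CPM) under the P2x7-KO label and 311 counts (25.6 CPM) under the wild-type label, 2.81-fold lower (2.26 to 3.5). It shares no 50-base word with another gene. Of the core U1 proteins, Snrpa, with 125 CPM under the P2x7-KO label and 202 CPM under the wild-type label, was 1.62-fold lower (1.52 to 1.72). Snrnp70 (U1-70K), per kilobase the strongest of the group in both libraries, had 430 CPM in the library labelled P2x7-KO and 478 CPM in the library labelled wild type, 1.11-fold lower (1.07 to 1.15).

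The U2 and U2AF group holds the genes of U2, SF3A, SF3B and U2AF, which select the branch site and the 3′ splice site. Rbm genes placed with them, among them Rbm5 and Rbm10, are part of its 17 genes. Of these 17, 0 were 1.5-fold higher and 5 were 1.5-fold lower, and the median log2 ratio was -0.31. Among all counted genes, 21.1% were 1.5-fold higher and 18.9% lower. Snrpa1, which binds the U2 RNA, was at 63.1 CPM in the library labelled P2x7-KO and 116 CPM in the library labelled wild type, 1.85-fold lower (1.69 to 2.01). Sf3a2 was at 170 CPM under the P2x7-KO label and 313 CPM under the wild-type label, 1.84-fold lower (1.75 to 1.94), and overlaps Plekhj1 on the other strand, itself at 39.5 CPM under the P2x7-KO label and 66.8 CPM under the wild-type label. Sf3b5, a small subunit of SF3B, was at 65.9 CPM under the P2x7-KO label and 107 CPM under the wild-type label, 1.63-fold lower (1.49 to 1.77). The other 2 were Rbm10, 1.59-fold lower (1.48 to 1.71), and U2af1l4, a relative of U2af1, 1.59-fold lower (1.35 to 1.86). Sf3b1, the large scaffold of SF3B that holds the branch site helix, stood on the other side. It had 616 CPM in the library labelled P2x7-KO, against 414 CPM in the library labelled wild type, 1.49-fold higher (1.44 to 1.54), and was the 1 gene of the 17 whose interval lay above 1. The subunits Sf3b2, Sf3b3 and Sf3b6 lay within 1.1-fold of 1. U2af1, which reads the AG at the end of the intron, was at 59.4 CPM in the library labelled P2x7-KO and 84.0 CPM in the library labelled wild type, 1.41-fold lower (1.28 to 1.55), with 59.4% of its words shared with other genes. U2af2, its partner that binds the polypyrimidine tract, was at 318 CPM under the P2x7-KO label and 395 CPM under the wild-type label, 1.24-fold lower (1.19 to 1.30).

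For the tri-snRNP and the proteins that activate the spliceosome, 2 of 15 genes were 1.5-fold higher and 1 was 1.5-fold lower, with a median log2 ratio of 0.02. The shares over all counted genes were 21.1% higher and 18.9% lower. Prpf18, a factor of the second step, was at 66.8 CPM in the library labelled P2x7-KO and 40.6 CPM in the library labelled wild type, 1.65-fold higher (1.47 to 1.84). Prpf4b, a kinase of tri-snRNP proteins, was at 169 CPM under the P2x7-KO label and 112 CPM under the wild-type label, 1.52-fold higher (1.42 to 1.62). Prpf31, which binds the U4 RNA, was at 85.5 CPM under the P2x7-KO label and 146 CPM under the wild-type label, 1.70-fold lower (1.58 to 1.84). A large U5 protein that the symbol rule does not take, Eftud2, was slightly lower. Eftud2 was at 172 CPM under the P2x7-KO label and 199 CPM under the wild-type label, 1.15-fold lower (1.09 to 1.22). Prpf8 and Snrnp200, large U5 proteins at the centre of the enzyme, were slightly higher. Prpf8, which cradles the catalytic RNA, had 717 CPM in the library labelled P2x7-KO, against 596 CPM in the library labelled wild type, 1.20-fold higher (1.17 to 1.24). Snrnp200, the helicase that unwinds U4 from U6, had 364 CPM under the P2x7-KO label and 286 CPM under the wild-type label, 1.27-fold higher (1.22 to 1.33). Prpf19, the ubiquitin ligase of the activation complex, was at 204 CPM under the P2x7-KO label and 287 CPM under the wild-type label, 1.4-fold lower (1.33 to 1.47). The rule takes 3 genes specific to the minor spliceosome, Snrnp25, Snrnp35 and Snrnp48, and all had ratios under 1. The interval of 1 of the 3 included 1. Other genes of the minor spliceosome lie outside the rule and are given with the lists below. Snrnp48 had the lowest ratio of the 3, at 38.5 CPM in the library labelled P2x7-KO and 58.3 CPM in the library labelled wild type, 1.52-fold lower (1.35 to 1.70).

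**Figure D2:**
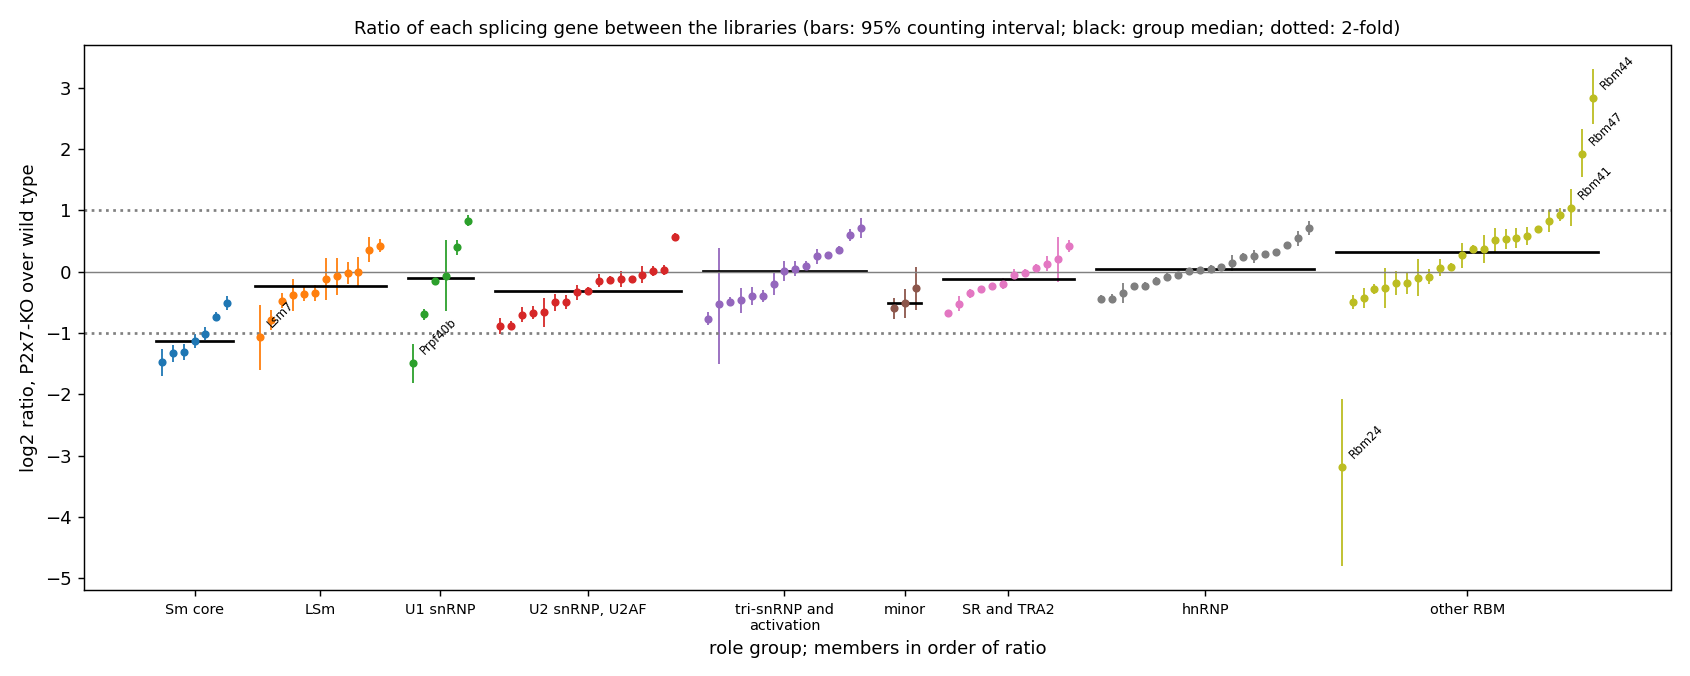
log2 ratio of each of the 116 counted splicing genes, P2x7-KO over wild type, in order of ratio within its role group (points, with 95% counting intervals as bars). The black line of the Sm core group lies at -1.13, near the dotted 2-fold line, while those of the tri-snRNP and hnRNP groups lie at 0.02 and 0.04.

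SR proteins bind exonic enhancers and recruit U1 and U2AF. Of their 12 counted genes, TRA2 genes included, 0 were 1.5-fold higher and 1 was 1.5-fold lower, with a median log2 ratio of -0.12. Over all counted genes, 21.1% were 1.5-fold higher and 18.9% lower. Srsf7 was the lower gene, at 269 CPM in the library labelled P2x7-KO and 431 CPM in the library labelled wild type, 1.60-fold lower (1.53 to 1.67). Srsf3 was at 78.8 CPM under the P2x7-KO label and 113 CPM under the wild-type label, 1.44-fold lower (1.32 to 1.56), and Tra2b at 188 CPM under the P2x7-KO label and 240 CPM under the wild-type label, 1.28-fold lower (1.21 to 1.35). Srsf10 lay at the upper end, at 144 CPM under the P2x7-KO label and 107 CPM under the wild-type label, 1.34-fold higher (1.24 to 1.43). Srsf2, per kilobase the strongest SR gene in both libraries, was at 580 CPM in the library labelled P2x7-KO and 679 CPM in the library labelled wild type, 1.17-fold lower (1.14 to 1.21). Of its words, 35.2% are shared, largely with Mettl23 on the opposite strand, which had 12.7 CPM under the P2x7-KO label and 17.3 CPM under the wild-type label. Srsf12 had 0 counts in both libraries.

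The hnRNP genes, which coat nascent RNA and often repress splice sites, took the largest share of counts of the 9 role groups. The share was 0.887% of the counts in the library labelled P2x7-KO, against 0.831% in the library labelled wild type. Of 20 genes, 1 was 1.5-fold higher and 0 were 1.5-fold lower, with a median log2 ratio of 0.04. Among all counted genes, 21.1% were 1.5-fold higher and 18.9% lower. Hnrnph2 was the higher gene, at 135 CPM under the P2x7-KO label and 82.3 CPM under the wild-type label, 1.64-fold higher (1.51 to 1.77). Its paralog Hnrnph1 was at 627 CPM under the P2x7-KO label and 653 CPM under the wild-type label, 1.04-fold lower (1.01 to 1.07). Hnrnpu, a scaffold of chromatin-bound RNA, had 1191 CPM in the library labelled P2x7-KO and 1169 CPM in the library labelled wild type, 1.02-fold higher (0.995 to 1.04). Hnrnpa2b1, per kilobase the strongest of all splicing genes, had 1110 CPM under the P2x7-KO label and 1096 CPM under the wild-type label, 1.01-fold higher (0.989 to 1.04). For these 2 genes, among the most deeply counted, the interval includes 1. The lower end of the group held Hnrnpc, at 257 CPM under the P2x7-KO label and 351 CPM under the wild-type label, 1.36-fold lower (1.30 to 1.43), and Hnrnpa1, at 209 CPM under the P2x7-KO label and 283 CPM under the wild-type label, 1.36-fold lower (1.29 to 1.43). Their relatives at the upper end were Hnrnpll, a regulator of Ptprc (CD45) splicing in lymphocytes, at 110 CPM under the P2x7-KO label and 75.5 CPM under the wild-type label, 1.46-fold higher (1.34 to 1.59), and Hnrnpul1, at 638 CPM under the P2x7-KO label and 471 CPM under the wild-type label, 1.35-fold higher (1.31 to 1.4).

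The other Rbm genes varied most. Of 24 counted genes, 3 passed 2-fold upward and 1 downward, 6 passed 1.5-fold upward and 1 downward, and the median log2 ratio was 0.32. Among all counted genes, 10.8% passed 2-fold upward and 8.95% downward, and 21.1% and 18.9% passed 1.5-fold. The upward counts of the Rbm genes were thus near the shares of all counted genes. After the adjustment for length and GC content described below, 3 of the 24 were 1.5-fold higher, where 15.7% of all genes fitted were. Rbm44, known from mouse germ cells as a protein of intercellular bridges, had 28.8 CPM (367 counts) in the library labelled P2x7-KO, against 4.03 CPM (49 counts) in the library labelled wild type, 7.15-fold higher (5.30 to 9.85). Rbm47, a cofactor of APOBEC1 RNA editing and a splicing regulator, had 283 counts (22.2 CPM) under the P2x7-KO label and 71 counts (5.84 CPM) under the wild-type label, 3.81-fold higher (2.93 to 5.01). Rbm41 was at 22.7 CPM under the P2x7-KO label and 11 CPM under the wild-type label, 2.06-fold higher (1.67 to 2.55). All 3 were low in level: per kilobase they had 7.48, 4.79 and 7.01 CPM in the library labelled P2x7-KO, where the median splicing gene had 47.6. Rbm33, at 176 CPM in the library labelled P2x7-KO and 92.4 CPM in the library labelled wild type, was 1.91-fold higher (1.77 to 2.05). Rbm12 was at 58.0 CPM under the P2x7-KO label and 32.8 CPM under the wild-type label, 1.77-fold higher (1.56 to 2). Rbm3, a cold-inducible protein that binds many mRNAs, combined a high level with a difference of this size. It had 662 CPM in the library labelled P2x7-KO, against 407 CPM in the library labelled wild type, 1.62-fold higher (1.57 to 1.68). Rbm24, a splicing regulator of heart and skeletal muscle, had 6 counts (0.471 CPM) under the P2x7-KO label and 56 counts (4.6 CPM) under the wild-type label, 9.77-fold lower with a wide interval (4.22 to 27.8). Rbm38 and Rbm14 lay below 1, Rbm38 at 183 CPM under the P2x7-KO label and 222 CPM under the wild-type label, 1.21-fold lower (1.15 to 1.28), and Rbm14 at 85.5 CPM under the P2x7-KO label and 120 CPM under the wild-type label, 1.4-fold lower (1.30 to 1.52). Rbm11 and Rbm46 had 0 counts in both libraries, and Rbm20, a regulator of titin splicing in heart, had 10 counts under the P2x7-KO label and 3 under the wild-type label.

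Ratios followed transcript length, in the splicing genes as in the table at large. Length is the median over the basic protein-coding transcripts of a gene in GENCODE M21, which has the build of the counts. Spearman's rho between length and log2 ratio was 0.53 over the 116 splicing genes and 0.43 over 12381 counted genes with a length, as descriptions across genes of the same pair of libraries. With GC content, rho was -0.40 and -0.34. The 29 splicing genes with the shortest transcripts (416 to 1503 bases) had a median log2 ratio of -0.50, with 1 gene 1.5-fold higher and 13 lower. All counted genes of these lengths had a median of -0.41, with 9.16% of them 1.5-fold higher and 35.0% lower. The 29 with the longest transcripts (3165 to 7844 bases) had a median of 0.35, with 7 genes 1.5-fold higher and 1 lower. All counted genes of these lengths had a median of 0.34, with 34.2% of them 1.5-fold higher and 7.57% lower. The 29 genes of 1516 to 2210 bases had a median of -0.23, with 0 higher and 1 lower by 1.5-fold, beside -0.17, 12.2% higher and 19.3% lower for all counted genes of these lengths. The 29 of 2225 to 3135 bases had a median of 0.05, with 2 higher and 4 lower, beside 0.07, 19.3% higher and 13.1% lower. The order of the 4 medians was thus that of the table at large, while the counts past 1.5-fold differed from it in size. Sm core transcripts are short, 550 to 1739 bases, and Sf3b1, Prpf8 and Snrnp200 are long, 6195, 7346 and 6745 bases.

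**Figure D3:**
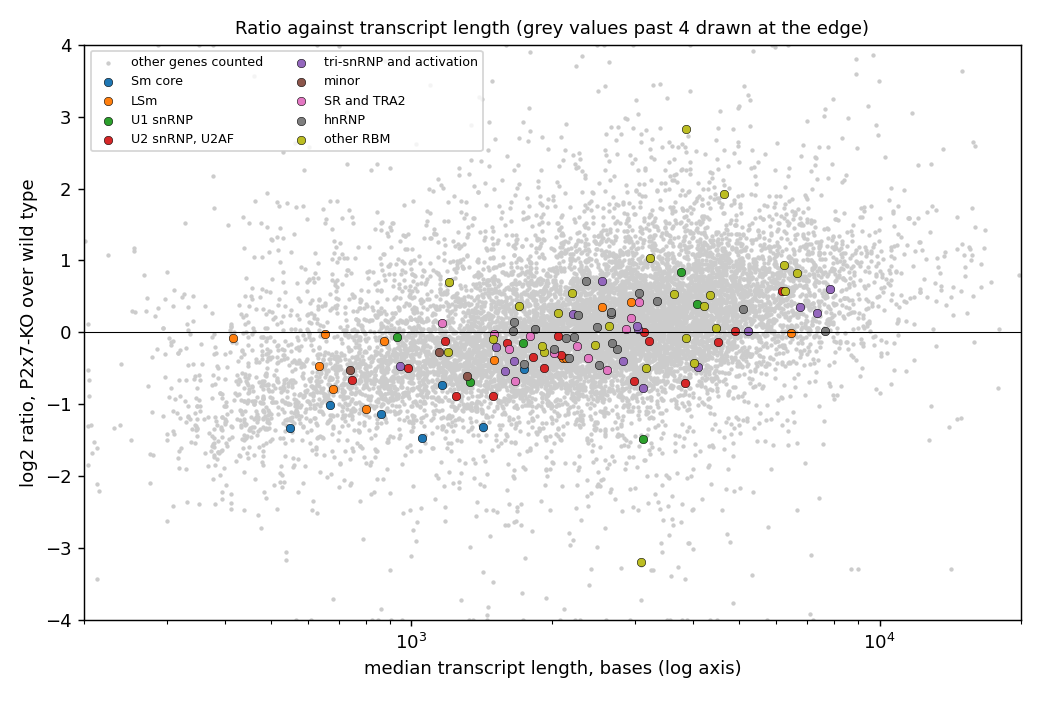
log2 ratio, P2x7-KO over wild type, against median transcript length in bases (log axis) for the splicing genes (coloured by role group) and for the other counted genes with a length (grey), apart from the very shortest and longest, which lie beyond the axis. The cloud rises with length (rho 0.53 over the splicing genes and 0.43 over all genes), and all 7 Sm core genes lie at its short end below 0.

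A smooth fit of the log2 ratio on length and GC content, made over all 12381 genes, was therefore subtracted from each ratio. After it, rho with length was -0.05 over the splicing genes. The count at least 2-fold higher was then 2 splicing genes (1.72%, against 8% of all genes fitted) and the count at least 2-fold lower was 7 (6.03%, against 5.44%). At 1.5-fold, 4 were higher (3.45%, against 15.7%) and 17 were lower (14.7%, against 12.7%). Of the 8 genes lower by 2-fold before the adjustment, 6 were so after it: Snrpg, Snrpe, Snrpd2, Snrpf, Prpf40b and Rbm24. Sf3b5, annotated with a length of 3841 bases, was added at -1.09. At 1.5-fold, 12 of the 19 lower genes and 3 of the 10 higher genes were called both times, and 34 of the 116 genes changed the sign of their log2 ratio. Rbm41, at 0.57, was no longer past 2-fold, and with length alone in the fit 4 genes were at least 2-fold lower.

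The adjustment left the Sm core low and brought the U2 and tri-snRNP scaffolds below 0. The median adjusted log2 ratio of the Sm core was -1.03, with all 7 genes below 0, and Snrpg stood at -1.36, Snrpd2 at -1.08, Snrpf at -1.06, Snrpe at -1.03, Snrpd1 at -0.78, Snrpd3 at -0.48 and Snrpb at -0.19. Over the 5 with under 20% of shared words it was -0.78. With length alone in the fit the median of the 7 was -0.71, so that the size of the difference depends on the adjustment. For the 17 genes of the U2 and U2AF group the adjusted median was -0.23 and all 17 lay below 0, among them Sf3b1 at -0.15, against 0.57 before the adjustment. The tri-snRNP genes had an adjusted median of -0.25, with 12 of 15 below 0, Prpf8 at -0.25 and Snrnp200 at -0.13. Beside these counts, 78 of the 116 splicing genes and 6316 of all 12381 genes fitted lay below 0 after the adjustment. Adjusted medians of the other groups were 0.02 for LSm, 0.05 for U1, 0.15 for the minor spliceosome, -0.16 for SR, -0.02 for hnRNP and 0.02 for the other Rbm genes, beside -0.01 over all genes. The medians of the LSm, U1, tri-snRNP, minor spliceosome and hnRNP groups thus changed sign, as did Lsm4, Snrnp70, Prpf4b, Srsf2 and Rbm38 among the genes described above. Rbm44 stood at 2.34 and Rbm47 at 1.49 after the adjustment, and Rbm3 at 0.68. Prpf40b stood at -1.31. Srsf9, with an unadjusted ratio of 1.09, stood at 0.60, and Hnrnpu at -0.82, values that come from the fit at a GC-rich short and a long GC-poor transcript.

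**Figure D4:**
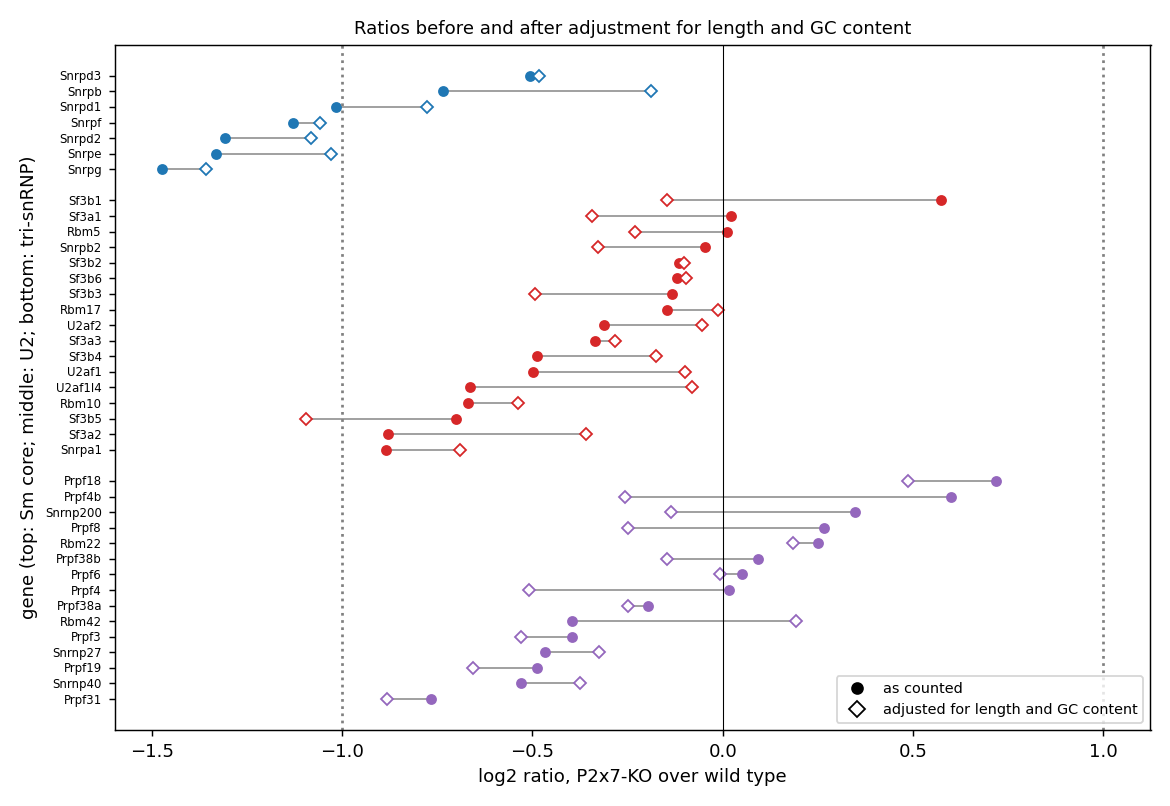
log2 ratio, P2x7-KO over wild type, of each Sm core, U2 and U2AF, and tri-snRNP gene before (filled circles) and after (open diamonds) the adjustment, 1 gene per row, with dotted lines at 2-fold. Sm core genes stay below 0 in both, while Sf3b1 moves to -0.15 from 0.57.

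Other genes of the splicing pathway that the symbol rule does not take were read from 7 lists by role, of which 103 genes were counted. Of these, 1 was 2-fold higher and 3 were 2-fold lower, where 10.8% and 8.95% of all counted genes were. At 1.5-fold, 14 were higher and 15 lower, where 21.1% and 18.9% of all counted genes were. After the adjustment for length and GC, 0 were 2-fold higher and 2 lower, where 8% and 5.44% of all genes fitted were. At 1.5-fold the adjusted counts were 3 higher and 11 lower, where 15.7% and 12.7% of all genes fitted were. The 3 genes 2-fold lower before the adjustment were Smn1, Gemin5 and the small nuclear RNA Rnu12, each with few counts. The SMN complex and its partners, which load the Sm ring onto snRNAs, had 13 counted genes. Of their intervals, 8 lay below 1, 5 included 1 and 0 lay above it. Over all 13363 counted genes, 4632 intervals lay below 1, 3978 included 1 and 4753 lay above it. In the SMN group 5 genes were 1.5-fold lower, with a median log2 ratio of -0.36, and -0.48 after the adjustment. Clns1a (pICln), the chaperone of Sm proteins, was at 84.0 CPM in the library labelled P2x7-KO and 132 CPM in the library labelled wild type, 1.57-fold lower (1.45 to 1.70). Prmt5, which methylates Sm proteins, was at 129 CPM under the P2x7-KO label and 194 CPM under the wild-type label, 1.5-fold lower (1.41 to 1.60). Smn1 itself was thinly counted, at 34 counts under the P2x7-KO label and 77 under the wild-type label. So was Gemin5, at 18 counts under the P2x7-KO label and 38 under the wild-type label. Both are among the 5 lower genes of the SMN group. Coil, the marker of Cajal bodies, was at 183 counts under the P2x7-KO label and 186 under the wild-type label.

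Of 31 counted splicing regulators outside the rule, 9 were 1.5-fold higher and 1 was 1.5-fold lower, with a median log2 ratio of 0.28. Of all counted genes, 21.1% were 1.5-fold higher and 18.9% lower, which also stands beside the lists below. After the adjustment 1 of the 31 was 1.5-fold higher and 0 were lower, where 15.7% and 12.7% of all genes fitted were. Their adjusted median was -0.08. Qk, an RNA-binding protein that promotes monocyte differentiation in human cells, was at 185 CPM in the library labelled P2x7-KO and 64.9 CPM in the library labelled wild type, 2.85-fold higher (2.63 to 3.09), and its adjusted log2 ratio was 0.72. Ptbp3, the haematopoietic relative of PTB, was at 576 CPM under the P2x7-KO label and 309 CPM under the wild-type label, 1.86-fold higher (1.79 to 1.94), and its adjusted log2 ratio, 0.55, was no longer past 1.5-fold. Ptbp1 was at 770 CPM under the P2x7-KO label and 831 CPM under the wild-type label, 1.08-fold lower (1.05 to 1.11). Higher Qk, Rbm47 and Ptbp3 were seen in the library with the higher monocyte marker sum given above, and the part of that difference was not tested. Among 11 helicases, 0 were 1.5-fold higher and 2 lower, with a median of 0.10. Ddx41, itself mutated in human myeloid neoplasms, was at 80.7 CPM under the P2x7-KO label and 148 CPM under the wild-type label, 1.83-fold lower (1.70 to 1.98). Ddx39b was at 0 counts under the P2x7-KO label and 2 under the wild-type label. The 21 factors around PRP19 and the splicing steps had 1 gene 1.5-fold higher and 3 lower (median -0.27), the 12 exon junction and export genes 1 higher and 1 lower (median -0.32), the 7 kinases of SR proteins 2 higher and 1 lower (median -0.04), and the 8 minor spliceosome genes 1 higher and 2 lower (median -0.41). These 8 include the small nuclear RNAs Rnu11 and Rnu12, which had few counts, and Rnu12 was 1 of the 2 lower. Zrsr2, the minor spliceosome factor mutated in myeloid neoplasms, was at 43.6 CPM in the library labelled P2x7-KO and 55.2 CPM in the library labelled wild type, 1.27-fold lower (1.13 to 1.42).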

How the data were processed

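RNA was measured in 2 libraries, 1 per group, grouped by the genotype label. The authors deposited raw counts per gene. The submitters' processing notes name HISAT2 2.0.4 and mm10. The sources used here do not give the counting program, annotation, strand setting or handling of reads that match more than 1 place. Both value columns were used (0 left out), and no test was made. Counts were scaled with TMM in edgeR 4.0.16 (R 4.3.3) over all genes. Ratios have exact 95% Clopper-Pearson counting intervals, and log2 ratios have 0.5 added to each count. Reads are not independent molecules. A gene was called when its ratio passed 2-fold or 1.5-fold and its interval excluded 1, among 13363 genes with at least 20 counts. A count of 0 allows up to 3 counts. Length and GC content came from GENCODE M21 (92.7% of counted genes had both), fitted with mgcv 1.9.3 (10 basis functions). Shared words are 50-mers on either strand. Promoters are RefSeq entries of GRCm38.p6. The interval and the fit were tested on simulated data. Alternatives were total count, upper quartile and DESeq2 1.42.0 scaling, other count minimums, and the adjustments. Named genes were every splicing gene past 2-fold, and, among genes with at least 100 counts, up to 3 higher and 3 lower per role group by the nearer bound of the interval and 2 and 2 per outside list, myeloid neoplasm genes and the label checks. Genes named beyond these were chosen after their values were seen, and some that the rule takes are left out here. The genes, lists and rules were chosen with earlier results of these data known.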

Additional observations from a re-analysis of the deposited data

How the results depend on the processing

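No paired analysis was possible because each group holds 1 library, and for the same reason no replicate could be left out. The count of splicing genes 1.5-fold higher was 10, against 16 with total count scaling and 4 once adjusted for length and GC. The count 2-fold lower was 8, against 4 after adjustment for length alone. The other counts stayed within 1.5 times under every alternative run. Of 82 named genes, those whose interval excluded 1 kept their sign under each other scaling and count minimum, apart from Rbm24, which has too few counts for the minimum of 100. Adjusted for length alone, Lsm4 turned to 0.081, Prpf4b to -0.023 and Snrnp200 to -0.20 on the log2 scale. Adjusted for length and GC, Lsm4 turned to 0.42, Prpf4b to -0.26, Snrnp200 to -0.13, Prpf39 to -0.20, Rbm38 to 0.26, Rbm42 to 0.19, Sf3b1 to -0.15, Snrnp25 to 0.15, Snrnp70 to 0.30, Srpk2 to -0.19, Srsf2 to 0.062, Zmat5 to 0.11, and the median of the minor spliceosome to 0.15. The cause was not tested. The median of all counted genes was 0.07 with total count scaling, 0.04 with DESeq2 size factors and -0.03 with upper quartile scaling. Depth limits Rbm24, Lsm7, Snrnp40 and Snrpc, which have few counts.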
